A study of Mus musculus with 6 samples.

Results

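The genes described here are 43 mouse genes of the antiviral programme that type I interferon switches on: effectors that act on viral RNA, protein or membranes, sensors of foreign nucleic acid, and feedback regulators. They were taken by name, and all 43 were found among the 39179 gene identifiers counted in each library. RNA was measured by sequencing of polyA-selected RNA from T cells differentiated in vitro into regulatory T cells (Tregs). The starting cells were naive CD4+ cells of the spleen, taken at 6 weeks of age from mice of the C57BL/6 strain and wild type genotype. All cultures ran for 3 days with TGF-β1 (5 ng/ml), IL-2 (40 ng/ml), anti-CD28 (1 µg/ml) and coated anti-CD3 (2 per ml, in a mass unit whose prefix the labels give in a garbled form). The 2 groups, of 3 libraries each, differed in the added protein: DEL-1-Fc, which joins DEL-1, a secreted protein that binds integrins, to an antibody Fc part, or the Fc control. The labels give neither the dose of these proteins nor say that the replicates are separate animals or cultures, so the spread between libraries on which all p-values rest may be technical only.

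Type I interferons (interferon-β and the interferon-α proteins) bind a receptor made of IFNAR1 and IFNAR2, whose kinases JAK1 and TYK2 activate transcription factors of the STAT family, STAT2 among them. The complex ISGF3, which holds STAT2 and IRF9, binds the interferon-stimulated response element (ISRE) in the promoters of antiviral genes. Type II interferon (interferon-γ) acts through its own receptor and through gamma-activated sites (GAS) in promoters, and it induces a part of the same genes. T cells respond to type I interferon and keep a low level of many of these genes without infection.

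The libraries held 33364166 to 61967687 counts, the fewest in DEL-1-Fc replicate 1. The first principal component of all genes separated the groups and carried 44% of the variance, and the second (23.3%) set DEL-1-Fc replicate 1 apart from the other DEL-1-Fc libraries. T cell markers were abundant in every library (summed level 1370 to 1570 CPM, counts scaled to library size). The Treg factor Foxp3 was at 316, 414 and 349 CPM in the Fc libraries and 521, 584 and 465 CPM in the DEL-1-Fc libraries (log2 fold change 0.54, edgeR adjusted p = 0.0166). The other Treg markers did not rise with it. Ctla4 was lower in DEL-1-Fc (log2 fold change -0.30, edgeR adjusted p = 0.031). Il2ra (0.05, adjusted p = 0.765) and Tnfrsf18 (-0.16, adjusted p = 0.343) did not pass the test. Of the plasmacytoid dendritic cell markers, which name the cell type best known for making interferon-α, Siglech had 0 counts in all 6 libraries, and the list of 4 summed to 0.196 to 0.382 CPM in Fc, compared with 0.274 to 0.442 CPM in DEL-1-Fc. The 5 conventional dendritic cell markers summed to 8.9 to 9.02 CPM in Fc, compared with 6.51 to 7.06 CPM in DEL-1-Fc. Nearly all of that sum was Zbtb46 (log2 fold change -0.42, adjusted p = 0.0192), and Clec9a had 0 counts throughout. The 5 macrophage and monocyte markers summed to 4.55 to 4.94 CPM and 4.23 to 4.62 CPM, mostly Cd68, and the 4 B cell markers to 4.6 to 6.01 CPM and 5.65 to 6.91 CPM. The part of such cells in the results below was not tested. The pair of CD8 T cell markers summed to 10.1 to 10.4 CPM in Fc, compared with 11.9 to 12.8 CPM in DEL-1-Fc. Most of that sum was Cd8b1, which did not pass the test (log2 fold change 0.04, edgeR adjusted p = 0.846). Cd8a was higher in DEL-1-Fc (log2 fold change 0.78, edgeR adjusted p = 0.00607). The 3 NK cell markers reached at most 0.0364 CPM, the 4 neutrophil markers at most 0.2 CPM and the 4 red cell globins at most 0.548 CPM.

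Most of the antiviral genes fell with DEL-1-Fc, with the largest falls in the Mx GTPases, Rsad2, Oasl1, Usp18, Ifi44 and Oas3. By the fitted fold change, each of these stood at 24.9% to 40.0% of its Fc level. Of the 43 genes, 42 had enough counts to be tested (all but Oas1g), 25 of them fell, none rose and 17 did not pass the test. A gene is said to have risen or fallen where the edgeR quasi-likelihood test gave a Benjamini-Hochberg adjusted p under 0.05 over all 14928 genes tested, and adjusted p-values below come from that test. Of the genes with values above 0, 1 (Rtp4) had an unadjusted p under 0.05 in edgeR, DESeq2 and limma-voom alike, and it passed the adjusted threshold in DESeq2. The 25 that fell are 59.5% of the tested antiviral genes, against 6.22% of all genes tested that fell and 6.4% that rose. The 43 genes were chosen with earlier results of these data known, so this comparison is not independent of the data. The 10 that fell at least 2-fold compare with 1.11% of all genes tested. The median log2 fold change (DEL-1-Fc over Fc) was -0.57 over the antiviral genes and 0.01 over all genes tested, and 37 of the 42 had a value below 0. All 3 DEL-1-Fc libraries lay below all 3 Fc libraries in 26 of the 42 (17.5% of all genes tested) and above them in 1, Rtp4 (17.2% of all genes tested), and the groups overlapped in 15. In bulk RNA, fewer cells that express these genes and less of their RNA per cell cannot be told apart.

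**Figure D1:**
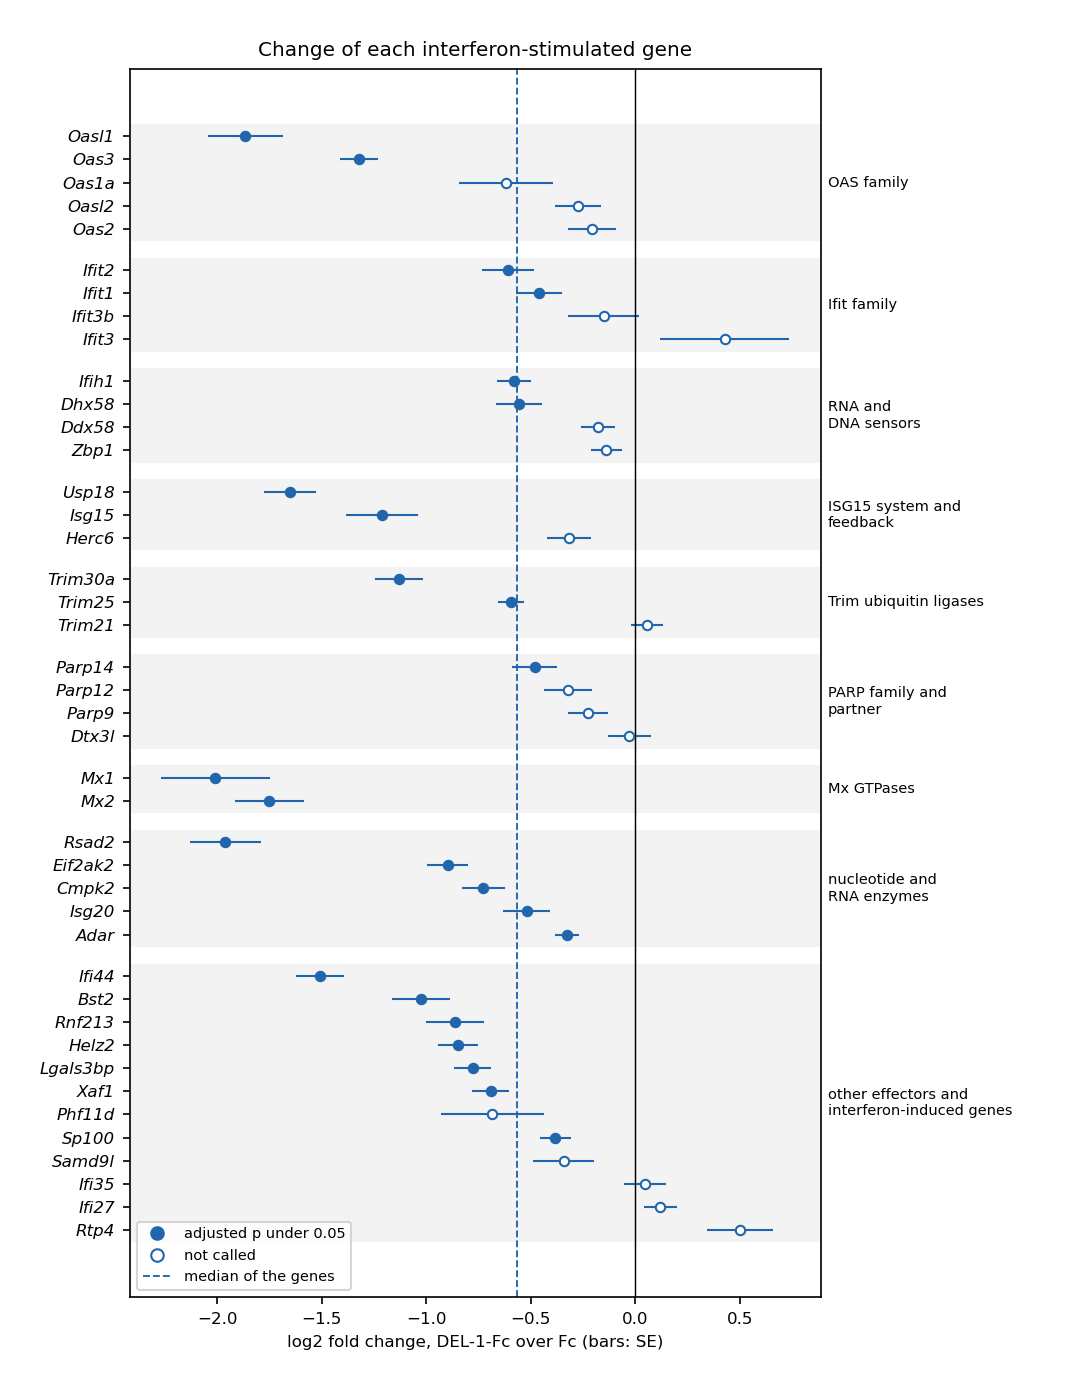
Log2 fold change (DEL-1-Fc over Fc, x axis) of the 42 tested antiviral genes, grouped by role (grey bands), with bars for the SE, filled points for an adjusted p under 0.05 and a dashed line at the median. The 25 filled points all lie left of 0, from -0.33 (Adar) to -2.01 (Mx1), and the Mx GTPases and the nucleotide and RNA enzymes have no open point.

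The call of 18 of the 25 genes held when any 1 of the 6 libraries was left out. The other 7 lost it in at least 1 omission and are given with those values below. Within the Fc group, replicate 1 was the lowest of the 3 in 37 of the 42 genes, whereas it was the lowest in 34.2% of all genes tested. Its median log2 deviation from the Fc mean over the 42 genes was -0.19, against 0.11 in Fc replicate 2 and 0.08 in Fc replicate 3. Within the DEL-1-Fc group, replicate 1 was the lowest in 19 genes, replicate 2 in 17 and replicate 3 in 6. Over all genes tested these shares were 41.4%, 30.5% and 28.1%. DEL-1-Fc replicate 1 was also the highest of its group in 13 of the 42 genes. The summed level of the genes was 4876, 5546 and 5366 CPM in Fc replicates 1, 2 and 3 and 3219, 3493 and 3681 CPM in DEL-1-Fc replicates 1, 2 and 3, so even the lowest Fc library stood above the highest DEL-1-Fc library. Without Fc replicate 1, 27 of the genes fell, and without Fc replicate 2 or 3 it was 18 or 19.

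**Figure D2:**
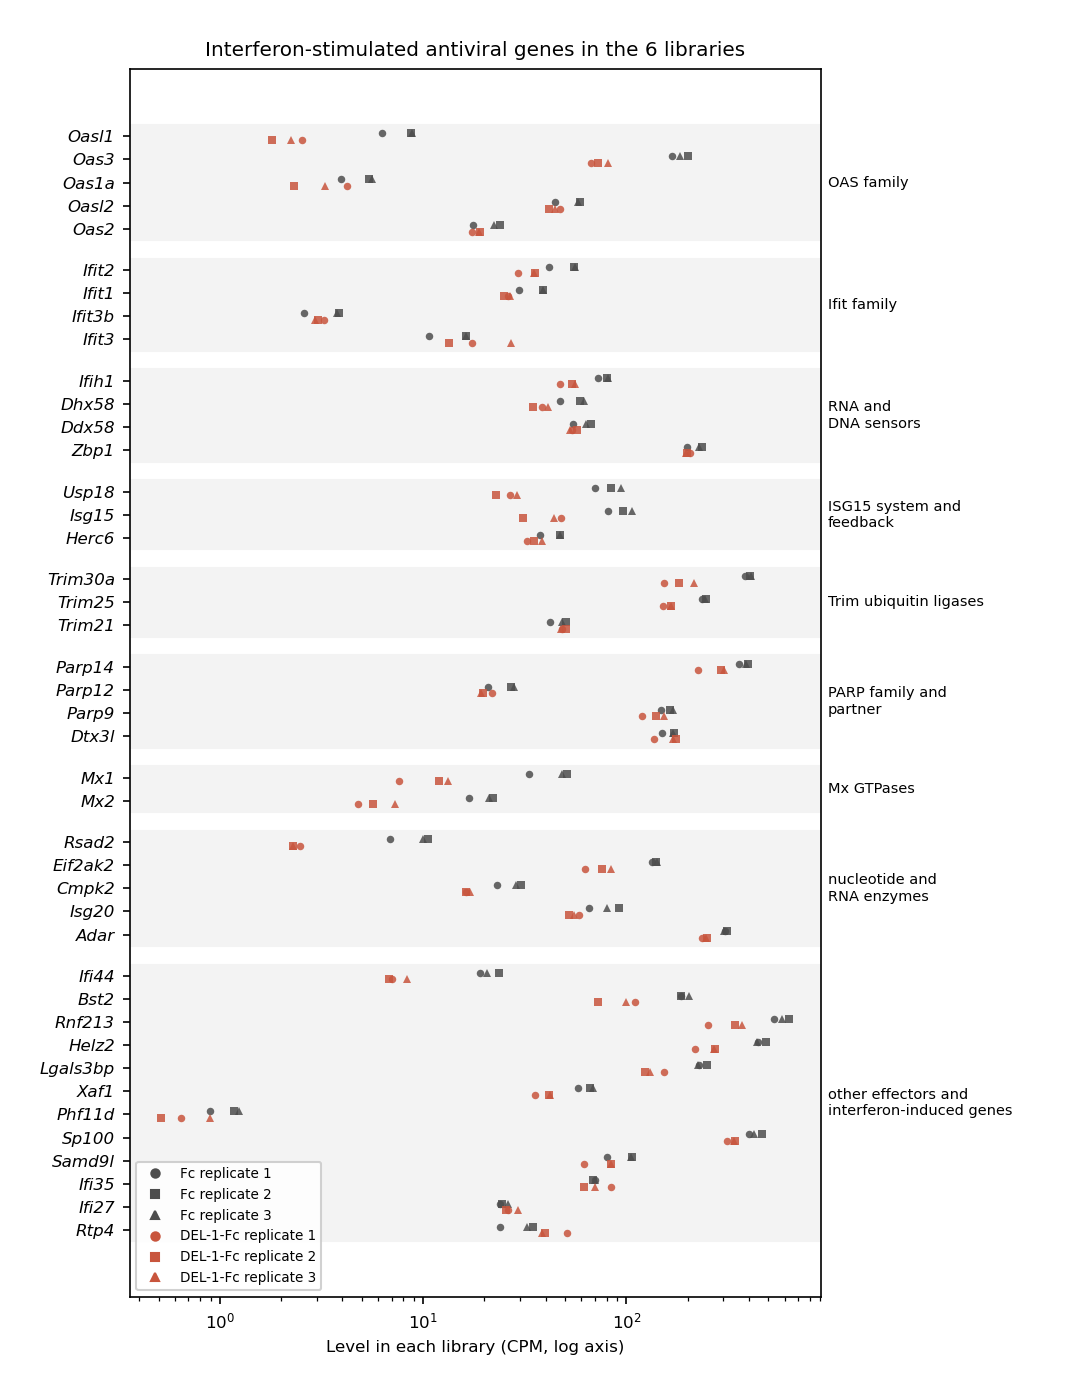
CPM of the antiviral genes in each of the 6 libraries (log axis), Fc in grey and DEL-1-Fc in red, with circles, squares and triangles for replicates 1, 2 and 3. The groups stand apart for Mx1, Mx2, Rsad2, Oasl1 and Usp18 and overlap for Zbp1, Dtx3l, Ifi35 and Trim21, and the Fc circle is the lowest Fc point of most genes.

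The start regions of these genes are shown first, because the ISRE is the sequence through which ISGF3 acts and the genes were chosen by name, not by sequence. RefSeq windows (GRCm38.p6, 250 bases before to 50 after a start) were given for 33 of the 43 genes, and Oas2, Dhx58, Zbp1, Usp18, Parp9, Parp14, Mx1, Mx2, Ifi27 and Rtp4 were not matched. The ISRE core was searched as GAAA, any 2 bases and GAAA again, on both strands, so that TTTC, 2 bases and TTTC counts as the same core, and matches may overlap each other and a GAS. It was found in 14 of the 33 (42.4%), against 3.99% of the 27025 genes with a window and 3.84% of the tested genes with one. Among the antiviral genes that fell it was found in 8 of 20 (40%), and among those tested that did not pass in 5 of 12 (41.7%). A gene counted if any of its windows held a core. The 20 genes had 27 windows and the 12 had 12, so the shares rest on unequal amounts of sequence. The 5 include Ifit3 and Ifit3b, whose cores lie in the same letters. GAS letters, TTCNNNGAA on either strand, were found in 7 of 33 (21.2%), against 9.55% of all genes with a window. A match describes letters only and does not show that a factor binds there.

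Of the 10 genes that fell at least 2-fold, 5 had an ISRE core before the start. Windows were not matched for Mx1, Mx2 and Usp18, and those of Oasl1 and Ifi44 held no core. The 5 stretches are printed 5′ to 3′ on the strand of the gene with the cores in capitals.
Rsad2: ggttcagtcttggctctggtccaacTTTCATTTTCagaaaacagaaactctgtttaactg
Oas3: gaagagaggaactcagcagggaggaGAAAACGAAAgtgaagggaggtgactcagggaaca
Isg15: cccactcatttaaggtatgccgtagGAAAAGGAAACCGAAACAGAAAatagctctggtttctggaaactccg
Trim30a: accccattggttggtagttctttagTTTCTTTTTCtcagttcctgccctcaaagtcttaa
Bst2: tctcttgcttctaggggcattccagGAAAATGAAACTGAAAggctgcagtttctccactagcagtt
The Rsad2 stretch (chr12:26456538-26456597, minus strand) holds 1 core, which begins 120 bases before the start and reads as the reverse complement. The Oas3 stretch (chr5:120777700-120777759, minus strand) holds 1 core 75 bases before the start. In Isg15 (chr4:156200850-156200921, minus strand) 3 cores overlap, the first 78 bases before the start. The Trim30a stretch (chr7:104465195-104465254, minus strand) has 1 core 36 bases before the start, and Bst2 (chr8:71537562-71537627, minus strand) has 2 overlapping cores from 130 bases before the start, the first of which overlaps GAS letters.

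Cores were also found before the starts of Ifit1, Ifit3, Ifit3b, Oas1a and Oas1g, which are shown because some of them are near copies that share reads. The window of Ifit2 held GAS letters 241 bases before the start and no ISRE core.
Ifit1: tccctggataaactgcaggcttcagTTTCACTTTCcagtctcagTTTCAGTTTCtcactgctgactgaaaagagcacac
Ifit3: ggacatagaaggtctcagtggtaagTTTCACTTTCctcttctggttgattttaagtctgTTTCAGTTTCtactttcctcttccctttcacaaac
Ifit3b: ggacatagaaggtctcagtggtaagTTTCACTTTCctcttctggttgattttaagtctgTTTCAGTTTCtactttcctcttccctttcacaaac
Oas1a: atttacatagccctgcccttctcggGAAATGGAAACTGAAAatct
Oas1g: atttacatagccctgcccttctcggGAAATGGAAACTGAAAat
The Ifit3 (chr19:34583348-34583441, plus strand) and Ifit3b (chr19:34607744-34607837, plus strand) stretches are the same 94 letters with 2 cores each. The Ifit1 stretch (chr19:34640760-34640838, plus strand) has 2 cores, the first 104 bases before the start. Oas1a (chr5:120907526-120907570, minus strand) and Oas1g (chr5:120887614-120887656, minus strand) share the same pair of overlapping cores. Of these 5, Ifit1 fell, Oas1a, Ifit3 and Ifit3b did not pass the test, and Oas1g was too low to test, with values given below.

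**Figure D3:**
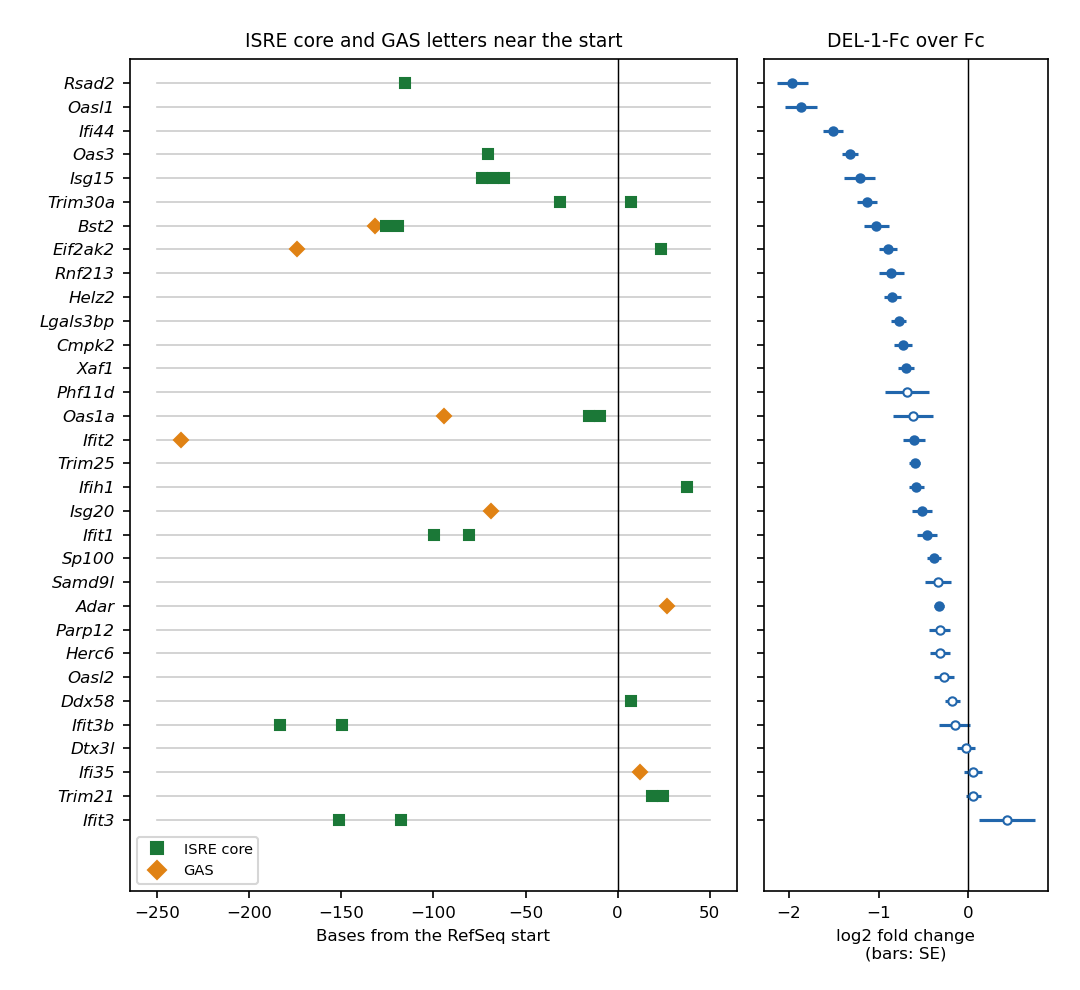
Left, ISRE core (green squares) and GAS letters (orange diamonds) by distance in bases from the RefSeq start for the 32 tested antiviral genes with a window, all windows of a gene on 1 line; right, log2 fold change with SE, filled where the adjusted p is under 0.05. Genes are sorted by fold change, and cores are found from Rsad2 at -1.96 to Ifit3 at 0.43.

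The oligoadenylate synthetases (OAS) make 2'-5' linked oligoadenylate when they bind double-stranded RNA, while the OAS-like genes Oasl1 and Oasl2 belong to the same family. Oas3 and Oasl1 fell, and Oas1a, Oas2 and Oasl2 did not pass the test. Oas3 (chromosome 5, 120753098 to 120777661, minus strand) was at 168, 200 and 184 CPM in the Fc libraries and 67.3, 72.8 and 81.0 CPM in the DEL-1-Fc libraries. Every DEL-1-Fc library lay far below the lowest Fc library, and the log2 fold change was -1.32 (SE 0.0896, adjusted p = 7.26e-05), the smallest adjusted p of the 42 genes. Oasl1 (chromosome 5, 114923240 to 114937915, plus strand), which is known to restrain the translation of Irf7, was scarcer, at 6.29, 8.71 and 8.79 CPM in Fc, compared with 2.53, 1.8 and 2.23 CPM in DEL-1-Fc. The groups did not overlap, and the log2 fold change was -1.87 (SE 0.179, adjusted p = 0.000355). Its neighbour Oasl2, whose end lies 11005 bases from Oasl1 on the same strand, was at 44.5, 59.1 and 57.6 CPM in Fc, compared with 47.2, 41.8 and 44.4 CPM in DEL-1-Fc. Those groups overlapped through Fc replicate 1, and the log2 fold change of -0.27 (SE 0.108) did not pass (adjusted p = 0.143), though without Fc replicate 1 it was -0.39 with adjusted p = 0.0332 (0.0332 to 0.406 over the alternatives).

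Oas2 lies 3244 bases from Oas3 and was at 17.6, 23.9 and 22.3 CPM in Fc against 17.4, 19.0 and 18.9 CPM in DEL-1-Fc (log2 fold change -0.21, SE 0.113, adjusted p = 0.281). The DEL-1-Fc libraries lay inside or just below the Fc range, unlike those of Oas3. Oas1a was at 3.96, 5.41 and 5.63 CPM in Fc, compared with 4.23, 2.32 and 3.29 CPM in DEL-1-Fc (log2 fold change -0.62, SE 0.224, adjusted p = 0.113). Only DEL-1-Fc replicate 1 overlapped the Fc group, and without it the value was -0.83 with adjusted p = 0.0196 (0.0196 to 0.299 over the alternatives). Oas1g had 4, 4 and 45 counts in Fc, compared with 0, 0 and 4 in DEL-1-Fc, so that most of its counts came from Fc replicate 3. Of the 31-base words of the transcripts, 68.1% of those of Oas1a and 65.4% of those of Oas1g also occur in another gene, which leaves the counts of both uncertain.

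Both Mx genes fell. They are named for dynamin-like GTPases that restrict viruses, but C57BL/6 and many other laboratory strains carry alleles of both that encode no functional antiviral protein, and GENCODE lists Mx2 as a polymorphic pseudogene. The values are therefore levels of RNA from the 2 genes only. Mx1 (chromosome 16, 97447035 to 97462907, minus strand) was at 33.2, 51.2 and 48.3 CPM in Fc, compared with 7.58, 11.9 and 13.2 CPM in DEL-1-Fc. The highest DEL-1-Fc library was well under the lowest Fc library, and the log2 fold change of -2.01 (SE 0.26, adjusted p = 0.00608) was the lowest of the 42 genes, with the largest SE of any that fell. Mx2 (chromosome 16, 97535308 to 97560900, plus strand) was at 16.8, 22 and 21.1 CPM in Fc, compared with 4.78, 5.66 and 7.25 CPM in DEL-1-Fc. Again the groups stood apart, with a log2 fold change of -1.75 (SE 0.164, adjusted p = 0.000319).

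All 5 enzymes that act on nucleotides or RNA fell, over a wide range. Rsad2 (chromosome 12, 26442746 to 26456452, minus strand) encodes viperin, which makes a chain-terminating nucleotide, and it was at 6.87, 10.6 and 9.96 CPM in Fc, compared with 2.47, 2.28 and 2.29 CPM in DEL-1-Fc. The DEL-1-Fc libraries were nearly equal and far below the Fc libraries (log2 fold change -1.96, SE 0.171, adjusted p = 0.000222). Cmpk2, a nucleotide kinase 12751 bases away on the opposite strand, was at 23.2, 30.3 and 28.5 CPM in Fc, compared with 16.3, 16.2 and 17.0 CPM in DEL-1-Fc. It also stood apart between groups, with a smaller log2 fold change of -0.73 (SE 0.102, adjusted p = 0.00213). Eif2ak2 encodes PKR, the kinase that halts translation on double-stranded RNA, and was at 134, 140.0 and 141 CPM in Fc, compared with 62.5, 75.7 and 84.3 CPM in DEL-1-Fc (log2 fold change -0.90, SE 0.1, adjusted p = 0.000653). Adar, which edits adenosine in double-stranded RNA, was at 305, 311 and 303 CPM in Fc, compared with 236, 249 and 247 CPM in DEL-1-Fc. Its fall was the smallest of the 25 (log2 fold change -0.33, SE 0.0577, adjusted p = 0.00702), and without Fc replicate 2 it did not pass (adjusted p = 0.051). The exonuclease gene Isg20 was at 65.8, 92.2 and 80 CPM in Fc, compared with 58.5, 52.4 and 55.0 CPM in DEL-1-Fc, with DEL-1-Fc replicate 1 close to Fc replicate 1. Its log2 fold change was -0.52 (SE 0.113, adjusted p = 0.0183), a call that held in the omission of Fc replicate 1 alone. It did not pass without Fc replicate 2 (adjusted p = 0.0639), Fc replicate 3 (0.0682), or DEL-1-Fc replicates 1, 2 or 3 (0.0928, 0.0568 and 0.0665).

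ISG15 is a ubiquitin-like protein that is joined to other proteins, USP18 removes it and also blocks the type I receptor, and HERC6 is the mouse ligase for it. Isg15 (chromosome 4, 156199424 to 156200818, minus strand) was at 81.5, 96.1 and 106 CPM in Fc, compared with 47.8, 31.1 and 44.0 CPM in DEL-1-Fc. The groups did not overlap, DEL-1-Fc replicate 2 was the lowest, and the log2 fold change was -1.21 (SE 0.172, adjusted p = 0.0046). Usp18 (chromosome 6, 121245906 to 121270917, plus strand) was at 69.7, 84.2 and 93.8 CPM in Fc, compared with 26.9, 22.9 and 29.0 CPM in DEL-1-Fc. Thus the feedback gene fell with the modifier, by a log2 of -1.65 (SE 0.125, adjusted p = 0.000122). Herc6 was at 37.4, 47.4 and 47.1 CPM in Fc, compared with 32.3, 35.1 and 38.4 CPM in DEL-1-Fc, and DEL-1-Fc replicate 3 overlapped Fc replicate 1 (log2 fold change -0.32, SE 0.106, adjusted p = 0.0883). Without Fc replicate 1 its log2 fold change was -0.42 with adjusted p = 0.0419 (0.0419 to 0.286 over the alternatives), and 25% of its words occur in another gene. Neither conjugating enzyme passed the test: Uba7, the activating enzyme, had a log2 fold change of 0.15 (adjusted p = 0.249) and Ube2l6, the carrier, one of -0.32 (adjusted p = 0.0825; DESeq2 called it lower).

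The Ifit genes lie close together on chromosome 19 from 34550694 to 34650009, with the relatives Ifit1bl1 and Ifit1bl2 between them. They encode related antiviral proteins, some of which bind RNA. Ifit2 was at 41.7, 55.3 and 55.7 CPM in Fc, compared with 29.3, 35.6 and 35.1 CPM in DEL-1-Fc (log2 fold change -0.61, SE 0.124, adjusted p = 0.0138). Ifit1 was at 29.5, 39.0 and 39.1 CPM in Fc, compared with 26.3, 25 and 26.9 CPM in DEL-1-Fc (log2 fold change -0.46, SE 0.109, adjusted p = 0.0261). In both, Fc replicate 1 was the Fc library nearest to the DEL-1-Fc group. The call of Ifit2 did not pass without Fc replicate 2 or 3 (adjusted p = 0.0613 each) or without DEL-1-Fc replicate 1 (0.0592). That of Ifit1 passed in the omission of Fc replicate 1 alone, with adjusted p = 0.0648 to 0.116 in the others. Ifit3 was at 10.7, 16.3 and 16.2 CPM in Fc, compared with 17.4, 13.4 and 27.2 CPM in DEL-1-Fc, a log2 fold change of 0.43 with the largest SE of all 42 genes (0.309, adjusted p = 0.435). DEL-1-Fc replicate 3 lay above every other library there. Ifit3b was at 2.59, 3.87 and 3.77 CPM in Fc, compared with 3.26, 3.04 and 2.92 CPM in DEL-1-Fc (log2 fold change -0.15, SE 0.171, adjusted p = 0.611). Since 61.8% of the words of Ifit3 and 55.3% of those of Ifit3b occur elsewhere, how reads were divided between them is uncertain.

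Among the sensors, the RNA helicase genes Ifih1 (MDA5) and Dhx58 (LGP2) fell. Ifih1 was at 72.7, 80.4 and 80.9 CPM in Fc, compared with 47.0, 53.7 and 55.9 CPM in DEL-1-Fc, without overlap (log2 fold change -0.58, SE 0.0813, adjusted p = 0.00218). Dhx58 was at 47.1, 59.4 and 61.8 CPM in Fc, compared with 38.6, 34.7 and 41.1 CPM in DEL-1-Fc (log2 fold change -0.56, SE 0.109, adjusted p = 0.0114). Its call did not pass without Fc replicate 2 (adjusted p = 0.0554), Fc replicate 3 (0.0553) or DEL-1-Fc replicate 1 (0.0628). Ddx58, which encodes RIG-I, was at 54.7, 67.0 and 63.5 CPM in Fc, compared with 53.7, 57.0 and 52.9 CPM in DEL-1-Fc, with overlapping groups (log2 fold change -0.18, SE 0.0831, adjusted p = 0.206). Zbp1, a sensor of Z-form nucleic acid, was abundant at 198, 235 and 227 CPM in Fc, compared with 205, 198 and 197 CPM in DEL-1-Fc (log2 fold change -0.14, SE 0.0746, adjusted p = 0.275).

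Of the Trim ubiquitin ligases, Trim30a and Trim25 fell and Trim21 did not pass. Trim30a (chromosome 7, 104409025 to 104465193, minus strand), a mouse gene of the TRIM5-related group, was at 382, 407 and 411 CPM in Fc, compared with 153, 181 and 214 CPM in DEL-1-Fc. All DEL-1-Fc libraries were far below the Fc range (log2 fold change -1.13, SE 0.113, adjusted p = 0.000408). Trim25, which ubiquitinates RIG-I, was tight within groups at 242 ± 6.08 CPM in Fc and 160.3 ± 8.36 CPM in DEL-1-Fc (SD, n = 3 each; log2 fold change -0.60, edgeR adjusted p = 0.000498). Trim21, the antibody-binding cytosolic ligase, was at 41.9, 50.3 and 48.2 CPM in Fc, compared with 48.2, 50.3 and 47.5 CPM in DEL-1-Fc (log2 fold change 0.06, adjusted p = 0.692), and its value was -0.02 without Fc replicate 1. Among relatives of Trim30a, Trim30d fell from 93.0, 99.7 and 100 CPM to 26.5, 34.6 and 42.5 CPM (log2 fold change -1.49, SE 0.15, adjusted p = 0.000653). Trim12c (log2 fold change -0.39, adjusted p = 0.0448) and Trim34a (-0.40, adjusted p = 0.0227) also fell, and Trim5 rose (0.58, adjusted p = 0.0402). Trim12c, Trim34a and Trim5 share 44.1%, 70.0% and 49.2% of their words with other genes, and none of these 3 calls held without Fc replicate 1 (adjusted p = 0.11, 0.099 and 0.152), Fc replicate 2 (0.134, 0.0953 and 0.149) or Fc replicate 3 (0.161, 0.087 and 0.0938). Trim12c (0.075) and Trim5 (0.085) did not pass without DEL-1-Fc replicate 2, nor Trim5 (0.131) without DEL-1-Fc replicate 3.

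PARP proteins attach ADP-ribose, and DTX3L is the ligase partner of PARP9. Parp14 (358, 396 and 390.0 CPM in Fc; 226, 291 and 302 CPM in DEL-1-Fc) was the member of this group that fell (log2 fold change -0.48, SE 0.108, adjusted p = 0.0203). It did not pass without Fc replicate 1 (adjusted p = 0.0572), Fc replicate 2 (0.0867) or Fc replicate 3 (0.0825). Parp9 and Dtx3l overlap head to head by 682 bases on opposite strands of chromosome 16, and share 458 exon bases. Parp9 was at 148, 164 and 170.0 CPM in Fc, compared with 119, 140.0 and 153 CPM in DEL-1-Fc (log2 fold change -0.22, adjusted p = 0.173), and Dtx3l at 149, 172 and 169 CPM in Fc, compared with 136, 175 and 170.0 CPM in DEL-1-Fc (-0.03, adjusted p = 0.894). The groups overlapped in both, and Dtx3l was at 0.01 without Fc replicate 2 and 0.08 without DEL-1-Fc replicate 1. Parp12 (log2 fold change -0.32, adjusted p = 0.106) did not pass, except without Fc replicate 1 (-0.44, adjusted p = 0.0289, in a range of 0.0289 to 0.329 over the alternatives). Of relatives outside the 43, Parp11 fell from 73.4, 76.8 and 77.3 CPM to 48.1, 53.5 and 56.8 CPM (log2 fold change -0.52, adjusted p = 0.00218).

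The remaining 12 genes include effectors of several kinds, 7 of which fell. Ifi44 (chromosome 3, 151730922 to 151749960, minus strand), an interferon-induced gene with antiviral activity, was at 19.0, 23.6 and 20.5 CPM in Fc, compared with 7.03, 6.81 and 8.31 CPM in DEL-1-Fc. Its DEL-1-Fc libraries lay close together and below all Fc libraries (log2 fold change -1.51, SE 0.115, adjusted p = 0.000114). Bst2 (chromosome 8, 71534255 to 71537456, minus strand) encodes tetherin, which holds budding virus at the cell surface, and was at 186, 185 and 204 CPM in Fc, compared with 110.0, 72.7 and 99.6 CPM in DEL-1-Fc. DEL-1-Fc replicate 2 was the lowest, as for Isg15 (log2 fold change -1.03, SE 0.139, adjusted p = 0.0026). Rnf213, a large ligase and the most counted of these genes, was at 535, 634 and 582 CPM in Fc, compared with 251, 341 and 372 CPM in DEL-1-Fc (log2 fold change -0.86, SE 0.139, adjusted p = 0.00498). Helz2, a helicase gene, fell from 457 ± 27.3 to 254 ± 31.1 CPM (SD, n = 3 each; log2 fold change -0.85, edgeR adjusted p = 0.000713). Lgals3bp, a secreted galectin-binding protein, fell from 234 ± 13.0 to 136 ± 15.3 CPM (SD, n = 3 each; log2 fold change -0.78, edgeR adjusted p = 0.000672). Xaf1, linked to cell death, was at 58.1, 66.3 and 68.2 CPM in Fc, compared with 35.5, 41.5 and 42.1 CPM in DEL-1-Fc (log2 fold change -0.69, adjusted p = 0.00139). Sp100, a nuclear body protein, fell by 0.38 on the log2 scale (adjusted p = 0.0109), and did not pass when Fc replicate 2 (adjusted p = 0.0648) or 3 (0.0508) was left out.

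The 5 others of this group did not pass. Rtp4, a receptor chaperone, is the gene with the highest log2 fold change of all 42: it was at 24.0, 34.7 and 32.5 CPM in Fc, compared with 51.3, 39.6 and 38.3 CPM in DEL-1-Fc. All DEL-1-Fc libraries lay above all Fc libraries, and DEL-1-Fc replicate 1 was the highest (log2 fold change 0.50, SE 0.159, adjusted p = 0.0827). DESeq2 gave an adjusted p of 0.013 for it, over a range of 0.013 to 0.242 across alternatives. Ifi27 (log2 fold change 0.12, adjusted p = 0.36) and Ifi35 (0.05, adjusted p = 0.808) had overlapping groups, and Ifi35 was at -0.08 without DEL-1-Fc replicate 1. Samd9l, a growth-restraining antiviral gene, was at 80.2, 106 and 105 CPM in Fc, compared with 62.2, 83.8 and 83.6 CPM in DEL-1-Fc (log2 fold change -0.34, adjusted p = 0.175). Phf11d was scarce, at 0.898, 1.17 and 1.24 CPM in Fc, compared with 0.64, 0.513 and 0.894 CPM in DEL-1-Fc (log2 fold change -0.68, SE 0.248, adjusted p = 0.113).

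Genes were compared per kilobase of exon, with the exon bases of all annotated transcripts of a gene joined. Where the expressed transcript is shorter than this length, the level given is too low, so the order is approximate. On this scale Bst2 had the highest level of the 43 in Fc at 212 CPM per kb. It was followed by Isg15 at 125, Trim30a at 97.3, Lgals3bp at 82.0 and Zbp1 at 62.4 CPM per kb. In DEL-1-Fc, Bst2 was still the highest at 104 CPM per kb, Zbp1 was at 56.7, Isg15 at 54.2, Lgals3bp at 47.8 and Trim30a at 44.4 CPM per kb. Of the genes with the largest falls, Mx1 was at 11.7 CPM per kb in Fc, Mx2 at 5.52, Oasl1 at 3.04 and Rsad2 at 2.11 CPM per kb. The 43 genes lie on 14 chromosomes, and 17 of them form 6 groups with gaps of at most 200000 bases. Among neighbours, Oas3 fell and Oas2 did not pass, and Oasl1 fell and Oasl2 did not pass; the differences between neighbours were not tested. The exons of 13 of the 43 overlap another gene, most often a predicted or antisense gene over a small part of their length. Because the strand setting is not given in the sources used here, such reads cannot be told apart.

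Other genes of the interferon pathway were taken from lists of 89 names, of which 85 were matched and 59 tested. Of these, 14 fell (23.7%) and 8 rose, with a median log2 fold change of -0.04. Over all genes tested, 6.22% fell and 6.4% rose. By list, 25% of the tested receptor and signalling genes, 28.6% of the inducing genes, 10% of the restraining genes and 23.8% of the relatives fell. None of the receptor and signalling genes or the inducing genes rose. Of the 10 tested restraining genes 1 fell and 2 rose, and of the 21 tested relatives 5 fell and 5 rose. Without Fc replicate 1 or 3, 9 of the pathway genes fell and 4 rose, without Fc replicate 2 it was 8 and 5, and without DEL-1-Fc replicate 3 it was 12 and 5. RNA of the interferons themselves was scarce in every library. The 16 matched type I and III ligand genes together had 53, 73 and 58 counts in Fc replicates 1, 2 and 3 and 5, 5 and 13 counts in DEL-1-Fc replicates 1, 2 and 3. Scaled to library size this is 0.933 to 1.19 CPM in Fc, compared with 0.0884 to 0.219 CPM in DEL-1-Fc, so the groups stood apart. Ifnb1, which encodes interferon-β, had 6, 11 and 8 counts in Fc, compared with 0, 0 and 1 in DEL-1-Fc, and was too low to test. Ifna4, an interferon-α that is made early, was the single ligand with enough counts, 17, 14 and 20 in Fc, compared with 2, 0 and 5 in DEL-1-Fc. It fell (log2 fold change -2.59, SE 0.644, adjusted p = 0.0311), a call that did not pass without Fc replicate 1 (adjusted p = 0.108), Fc replicate 2 (0.065) or Fc replicate 3 (0.11). Many interferon-α genes are near copies, so reads among them are uncertain. The part of these low ligand levels in the antiviral genes was not tested.

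Of 8 tested receptor and signalling genes, Stat2 and Tyk2 fell and none rose, nor did any with a value above 0 have an unadjusted p under 0.05 in edgeR, DESeq2 or limma-voom (count 0 in each). Stat2 was at 199, 219 and 218 CPM in Fc, compared with 125, 146 and 143 CPM in DEL-1-Fc, without overlap (log2 fold change -0.62, SE 0.0771, adjusted p = 0.0012). Irf9 was at 106, 108 and 107 CPM in Fc, compared with 110.0, 103 and 101 CPM in DEL-1-Fc (log2 fold change -0.04, SE 0.0578, adjusted p = 0.703). The receptor genes Ifnar1 (log2 fold change -0.04, SE 0.0793, adjusted p = 0.762) and Ifnar2 (0.03, SE 0.0733, adjusted p = 0.814) did not pass, nor did Jak1 (0.10, SE 0.074, adjusted p = 0.408). Without DEL-1-Fc replicate 1, Ifnar1 was at 0.03, Ifnar2 at -0.01 and Jak1 at 0.17 with adjusted p = 0.0377 (0.0377 to 0.721 for Jak1 over the alternatives), and without Fc replicate 1 Ifnar2 was at -0.02. Tyk2 fell by 0.23 on the log2 scale (adjusted p = 0.0463), but did not pass without Fc replicates 1, 2 or 3 (adjusted p = 0.162, 0.178 and 0.152), with no scaling factors (0.1) or when DEL-1-Fc replicate 3 was left out (0.118). Transcripts of the type II ligand Ifng were at 36.1, 31 and 28.6 CPM in Fc, compared with 10.4, 9.67 and 13.9 CPM in DEL-1-Fc (log2 fold change -1.49, SE 0.147, adjusted p = 0.000418). Its receptor chain Ifngr1 rose, from 64.1, 72.5 and 71.8 CPM to 112, 119 and 111 CPM (log2 fold change 0.72, SE 0.0688, adjusted p = 0.000355), and Ifngr2 did not pass (0.06, adjusted p = 0.676).

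**Figure D4:**
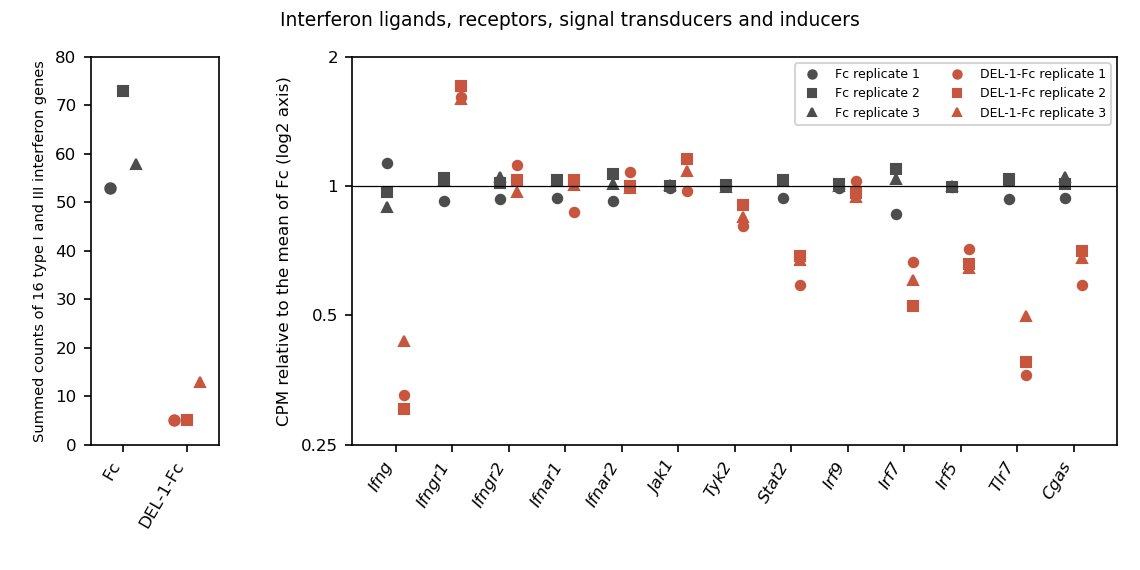
Left, summed raw counts of 16 type I and III interferon genes in each library; right, CPM of interferon receptor, signalling and inducing genes relative to the Fc mean (log2 axis), Fc in grey, DEL-1-Fc in red, symbols for replicates. The ligand counts are 53 to 73 in Fc and 5 to 13 in DEL-1-Fc, Irf9 lies near 1, and Stat2, Irf7, Irf5, Tlr7 and Cgas lie below 1 in every DEL-1-Fc library.

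Of 14 tested genes that detect nucleic acid or induce interferon, 4 fell and none rose by edgeR, and limma-voom gave the same counts. DESeq2 gave 6 lower, with Tmem173 and Unc93b1 added, and none higher, and 1 gene with a value above 0, Irf3, had an unadjusted p under 0.05 in each tool. Without DEL-1-Fc replicate 1, edgeR gave 7 lower and 1 higher. Irf7, the factor that amplifies interferon-α transcription and is itself induced by interferon, was at 93.6, 119 and 113 CPM in Fc, compared with 72.3, 57.0 and 65.6 CPM in DEL-1-Fc (log2 fold change -0.74, SE 0.11, adjusted p = 0.00295). Tlr7, a receptor for single-stranded RNA, was at 33.7, 37.6 and 37.1 CPM in Fc, compared with 13.1, 14.1 and 18 CPM in DEL-1-Fc (log2 fold change -1.26, SE 0.117, adjusted p = 0.000299). Both stood apart between groups, as did Cgas, the DNA sensor (log2 fold change -0.60, adjusted p = 0.00254), and Irf5 (-0.57, adjusted p = 0.000653). The related factor Irf3 was at 0.18 (adjusted p = 0.133) and the adaptor Mavs at 0.13 (adjusted p = 0.25), and neither passed. Among 10 tested genes that restrain interferon signalling, the phosphatase gene Ptpn6 fell (log2 fold change -0.26, adjusted p = 0.0203), and Socs3 (0.39, adjusted p = 0.0169) and Pias1 (0.23, adjusted p = 0.0274) rose. Without Fc replicate 1 none of these 3 passed (adjusted p = 0.115, 0.0967 and 0.13). Without Fc replicate 2, Ptpn6 (0.0882) and Pias1 (0.14) did not pass, and without Fc replicate 3, Ptpn6 (0.09), Socs3 (0.0737) and Pias1 (0.104) did not. Pias1 also did not pass without DEL-1-Fc replicate 2 (0.052) or 3 (0.0665). Socs1, an inhibitor of the receptor's kinases, was at 0.04 (adjusted p = 0.881).

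Of 21 tested relatives of the antiviral genes, 5 fell and 5 rose. Without Fc replicate 1 it was 3 and 3, without Fc replicate 2 or 3 it was 2 and 3, and 3 rose when DEL-1-Fc replicate 3 was left out. Those that rose include the Ifitm genes, membrane proteins that block viral entry and are also interferon-inducible, though they are outside the 43. Ifitm3 was at 35.2, 42.2 and 37.7 CPM in Fc, compared with 68.4, 55.5 and 61.2 CPM in DEL-1-Fc (log2 fold change 0.68, SE 0.0962, adjusted p = 0.00218). Ifitm2 was at 33.6, 37.6 and 34.7 CPM in Fc, compared with 53.1, 51.1 and 46.2 CPM in DEL-1-Fc (log2 fold change 0.51, SE 0.0767, adjusted p = 0.00319). In both, every DEL-1-Fc library was above every Fc library, opposite in direction to the antiviral genes that fell. Ifitm1 was scarce, at 0.687, 0.685 and 0.765 CPM in Fc, compared with 2.62, 1.95 and 1.72 CPM in DEL-1-Fc (log2 fold change 1.54, SE 0.2, adjusted p = 0.00144). Of the words of Ifitm2 and Ifitm3, 55.5% and 20.5% occur in other genes, so their counts are uncertain. Phf11b, a relative of Phf11d, fell (log2 fold change -0.42, adjusted p = 0.0368), but shares 62.9% of its words and did not pass without Fc replicate 2 (adjusted p = 0.147), Fc replicate 3 (0.128) or any DEL-1-Fc library (0.0672 to 0.0785).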

How the data were processed

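RNA was measured in 3 DEL-1-Fc and 3 Fc libraries, grouped by the treatment labels. Each library has 1 file deposited by the authors, with raw counts per Ensembl gene. STAR (no version) and HTSeq 0.6.0 were used on GRCm38 (mm10), per the submitters' processing notes. The annotation release, the strand setting and the handling of multi-mapping reads are unknown, being not given in the sources used here. Of 39179 identifiers, 37693 matched GENCODE M21, the source of symbols, positions and exon lengths. The 43 genes and all lists were chosen with earlier results of these data known, and all 43 are named; some genes of the other lists are not reported here.

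The deposited counts entered edgeR 4.0.16 (R 4.3.3) unchanged: filterByExpr, with a minimum count of 10 and total of 15, kept 14928 genes (TMM scaling; robust quasi-likelihood test; Benjamini-Hochberg over all genes kept; threshold 0.05). CPM uses TMM-scaled library sizes. For the SE, the absolute log2 fold change was divided by the root of the F statistic. The common biological coefficient of variation was 14.4%. A gene with 0 counts may still amount to as many as 3 counts, or 0.0489 CPM at the greatest and 0.0914 CPM at the smallest depth, for counting error only. Replicates differed by more than counting noise (chi-square per degree of freedom 19.9 to 68.1). Tested on data simulated for this comparison over 14753 genes, the fit called 41.8% of genes changed by a log2 of 0.5, 70.5% at 1 and 92.6% at 2, and 11.3% of its calls were unchanged genes. The simulation changed only 67, 61 and 68 genes at these sizes, while the real comparison called 1884. It also used 1 dispersion per gene for both groups, though replicates differed more in DEL-1-Fc (35.2 to 68.1) than in Fc (19.9 to 22.6). These shares may therefore not hold for the real calls. Shared sequence is the percent of a gene's 31-base words that occur in another gene, uncertain from 20%. Alternatives were other scaling (RLE, upper-quartile, none), other filters (none, 5 CPM in 3 libraries), DESeq2 1.42.0, limma-voom (limma 3.58.1), no robust dispersion, a block for the replicate number, omission of each library, thinning to the smallest library, leaving out genes that share sequence, and a minimum absolute log2 fold of 1. Promoter windows are from RefSeq; protein sequences were not used here.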

Additional observations from a re-analysis of the deposited data

How the results depend on the processing

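Of the 42 antiviral genes, 25 fell under RLE, upper-quartile or no scaling, either filter, limma-voom, no robust dispersion, thinning and without genes that share sequence. DESeq2 gave 27, the replicate block 26, and leaving out 1 library 18 to 27. The count rising was 0 except with DESeq2 (1) and without genes that share sequence (1), Rtp4 both times. With an absolute log2 fold of at least 1, 10 antiviral genes fell, 4 other pathway genes fell and 1 rose, and over all genes 166 fell and 247 rose. Leaving out 1 library, the other pathway genes that fell numbered 8 to 20 and those that rose 4 to 10, and over all genes 466 to 1518 fell and 428 to 1485 rose; the cause was not tested. Without genes that share sequence 5 other pathway genes rose, with fewer genes tested. DESeq2 gave 20 other pathway genes that fell. With no scaling factors 753 of all genes fell and 1122 rose, against 928 and 956. The sign turned for genes with values near 0 when 1 library was left out, and for Dtx3l also with no scaling factors (0.0025). Over all the alternatives, values were -0.0182 to 0.1106 for Trim21, -0.0942 to 0.0762 for Dtx3l and -0.0786 to 0.1453 for Ifi35. Ifnar1 ranged from -0.0924 to 0.0282 and Ifnar2 from -0.0218 to 0.0806. Whether libraries of equal replicate number are paired is not known. Their deviations from the group means correlated at 0.0163, 0.0885 and 0.0425. Such values cannot exclude pairing, since paired libraries may share little deviation. With the replicate number as a block, Isg20 did not pass (adjusted p = 0.0505) and Herc6 (0.0434) and Samd9l (0.0134) did, and 12 other pathway genes fell and 6 rose. At this depth Oas1g and all of the 16 interferon ligand genes but Ifna4 were too low to test.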
